A study of Mus musculus with 12 samples.

Results

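Cells keep free zinc low by binding it to metallothioneins and by moving it across membranes, and 10 mouse genes of that system were followed here out of 16288 genes listed in at least 1 library. They are the metallothionein genes Mt1 and Mt2, the metal-responsive transcription factor gene Mtf1, the zinc exporter genes Slc30a1, Slc30a5 and Slc30a7, and the zinc importer genes Slc39a6, Slc39a7, Slc39a10 and Slc39a14. Each symbol named exactly 1 gene in the tables, and all 10 were among the 12545 genes that passed the low-count filter. The set was chosen by measured values: Mt1, Mt2 and Slc30a1 were higher with the compound PFI-3 than with its vehicle in differentiating cells. The comparisons of PFI-3 with DMSO at the 24 h and 48 h stages are therefore given for these 10 genes as a description, with no test.

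The cells were C2C12, an immortalized mouse myoblast line that withdraws from the cell cycle and fuses into myotubes when serum is lowered. RNA sequencing covered 12 libraries in 6 groups of 2, called A and B. Proliferating cells in growth medium with fetal bovine serum (GM), and cells 24 h or 48 h after a change to low horse serum with insulin (DM 24h and DM 48h), received either the vehicle DMSO or 50 uM PFI-3. PFI-3 is a small molecule ligand for bromodomains of BRM, BRG1 and PB1, which are subunits of SWI/SNF chromatin remodellers. GM cells were exposed for the last 12 h before harvest; DM cells were exposed for 12 h ahead of the medium change and again in the differentiation medium, with fresh DMSO or PFI-3 given each 24 h. No group was left without vehicle or compound, and all groups derive from 1 cell line. Stage differs together with medium, serum, insulin, confluence and the length of exposure to DMSO or PFI-3. The parts of these cannot be told apart. The labels call the libraries biological duplicates and do not say what separates A from B, so p-values measure the spread between these samples, which may be technical.

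Metallothioneins are small cysteine-rich proteins that bind zinc and copper. When zinc rises, the transcription factor MTF1 binds metal response elements and activates Mt1, Mt2 and Slc30a1, whose product exports zinc from the cell. The SLC30 family lowers cytosolic zinc, by export or by loading organelles, whereas the SLC39 (ZIP) family raises it, and MTF1 is known to repress Slc39a10 when zinc is ample. Metallothionein genes also respond to copper, cadmium, glucocorticoids and oxidative stress.

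Total expected counts lay between 12576374 and 13658352 per library. The GM pairs varied more than the others: over genes, log2 ratios between libraries B and A had an SD of 0.309 with DMSO and 0.277 with PFI-3, against 0.127 to 0.133 in the 4 DM pairs. Myogenic identity was checked with 7 muscle lineage markers, whose summed level with DMSO was 629 to 686 CPM (expected counts scaled to a common library total) in GM, 2969 to 2990 CPM at DM 24h and 16405 to 16555 CPM at DM 48h. With PFI-3 that sum was 436 to 571 CPM in GM, 1727 CPM in both DM 24h libraries and 11364 to 11764 CPM at DM 48h, and its part in the results on zinc genes was not tested. The summed level of 4 cycling-cell markers was 536 to 541 CPM with DMSO and 998 to 1007 CPM with PFI-3 at DM 48h, and 1735 to 1766 against 1315 to 1369 CPM at DM 24h. The 15 markers of other cell types summed to 2.10 to 11.2 CPM across all libraries, with 5 to 8 of them at 0 in both libraries of a group.

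Mt1 and Mt2 lie on chromosome 8 (Mt1 at chr8:94178883-94180327, Mt2 at chr8:94172618-94173567, RefSeq, GRCm38.p6, the build also called mm10), with 5316 bases between the end of Mt2 and the start of Mt1. Their coding sequences are shown because near-identical genes could share reads. They are taken from GENCODE M21, written 5′ to 3′, with the codons for cysteine in capitals:
Mt1 coding sequence: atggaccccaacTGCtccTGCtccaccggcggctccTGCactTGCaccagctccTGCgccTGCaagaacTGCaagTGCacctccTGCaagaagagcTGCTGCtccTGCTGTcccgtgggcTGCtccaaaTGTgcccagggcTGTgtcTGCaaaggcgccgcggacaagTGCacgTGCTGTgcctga
Mt2 coding sequence: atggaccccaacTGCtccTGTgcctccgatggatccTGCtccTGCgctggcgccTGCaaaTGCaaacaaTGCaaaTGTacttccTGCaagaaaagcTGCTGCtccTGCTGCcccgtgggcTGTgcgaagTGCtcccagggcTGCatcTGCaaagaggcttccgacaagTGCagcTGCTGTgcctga
Each sequence has 186 bases and 61 codons before the stop. All 20 cysteine codons of Mt1 stand at the same codon positions in Mt2, and 148 of the bases (79.6%) are identical. The longest run shared by the transcripts is 20 bases, and the expected counts of both genes were whole numbers in all 12 libraries. In GENCODE M21 the antisense gene Gm45774 covers 73.5% of the exon bases of Mt2, and strand use in the counting is not given in the sources used here, so reads from the opposite strand cannot be told apart from Mt2 reads.

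The starts of Mt1, Mt2 and Slc30a1 are shown because these genes carry the description below. RefSeq promoter windows (250 bases before to 50 bases after the start) were found for 8 of the 10 genes, and Slc39a6 and Slc39a14 had no entry. The metal response core was searched as TGCACNC and TGCGCNC on both strands, and these patterns differ at a fixed base, so 1 place cannot match both on the same strand. Capitals mark each match, and a match on the opposite strand reads as its reverse complement. The Mt2 stretch ends at the base before its start, and the others show a match with 10 bases on either side:
Mt2, chr8:94172368-94172617, plus strand: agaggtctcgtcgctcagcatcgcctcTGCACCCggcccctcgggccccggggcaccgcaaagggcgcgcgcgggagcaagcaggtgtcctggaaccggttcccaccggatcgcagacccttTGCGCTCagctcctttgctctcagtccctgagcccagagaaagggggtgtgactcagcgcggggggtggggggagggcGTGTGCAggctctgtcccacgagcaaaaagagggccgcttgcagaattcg
Mt2 match 4, chr8:94172612-94172638, plus strand: aattcgggtcGTGCGCAggcccagggg
Mt1 match 1, chr8:94179056-94179082, plus strand: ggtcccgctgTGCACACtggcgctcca
Mt1 match 2, chr8:94179081-94179107, plus strand: cagggagctcTGCACTCcgcccgaaaa
Mt1 match 3, chr8:94179099-94179125, plus strand: gcccgaaaagTGCGCTCggctctgcca
Slc30a1 match 1, chr1:191906728-191906754, plus strand: cgggggttccGAGTGCAaagcaaagtt
Slc30a1 match 2, chr1:191906801-191906827, plus strand: cctccgggccGAGCGCAgtcgccgcgg
Mt2 held 4 matches, Mt1 held 3, Slc30a1 held 2 and Slc30a5 held 1. Mtf1, Slc30a7, Slc39a7 and both listed starts of Slc39a10 held 0. Across all 32851 windows of this length, 25.7% held at least 1 match and 1.97% held 3 or more; among the 12843 windows of genes past the filter these shares were 35.8% and 3.18%. For Mt1 and Slc30a1 the listed start lies inside the gene span given by RefSeq. These matches describe letters in a window and do not show binding.

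Mt1 was the most abundant of the 10 genes on the length-scaled FPKM scale in every library (fragments scaled to gene length and sequencing depth, as deposited). Its FPKM was 420 and 695 in GM DMSO (libraries A and B), 727 and 727 in GM PFI-3, 223 and 218 in DM 24h DMSO, 919 and 931 in DM 24h PFI-3, 342 and 322 in DM 48h DMSO and 636 and 734 in DM 48h PFI-3. The DM 24h PFI-3 libraries were the highest, and the DM 24h DMSO libraries the lowest. In CPM, neighbours in the order of group means overlapped only between GM PFI-3 and DM 48h PFI-3, and between DM 48h PFI-3 and GM DMSO, whose A and B libraries stood at 226 and 355 CPM.

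Mt2 followed the same order of groups. Its FPKM was 206 and 393 in GM DMSO, 489 and 465 in GM PFI-3, 119 and 124 in DM 24h DMSO, 608 and 613 in DM 24h PFI-3, 187 and 205 in DM 48h DMSO and 431 and 465 in DM 48h PFI-3. Every PFI-3 library was above every DMSO library of its stage. The FPKM of Mt1 was 1.48 to 2.04 times that of Mt2, with the highest ratio in GM DMSO A. Mt1 and Mt2 together took 0.0170% of all counts in each DM 24h DMSO library and 0.0750% and 0.0761% in DM 24h PFI-3. By FPKM, Mt1 ranked 295 and 301 among listed genes in DM 24h DMSO, and 62 and 63 in DM 24h PFI-3.

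Slc30a1, which encodes the plasma membrane zinc exporter ZnT1 (chr1:191906697-191913248), was far less abundant. Its expected count was 255 and 264 in GM DMSO, 255 and 303 in GM PFI-3, 64 and 61 in DM 24h DMSO, 249 and 267 in DM 24h PFI-3, 89 and 99 in DM 48h DMSO and 202 and 228 in DM 48h PFI-3. The DMSO libraries were low at both DM stages, and the PFI-3 libraries stayed near the GM counts at DM 24h. GENCODE M21 places the antisense gene 1700034H15Rik over 8.92% of its exon bases.

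**Figure D1:**
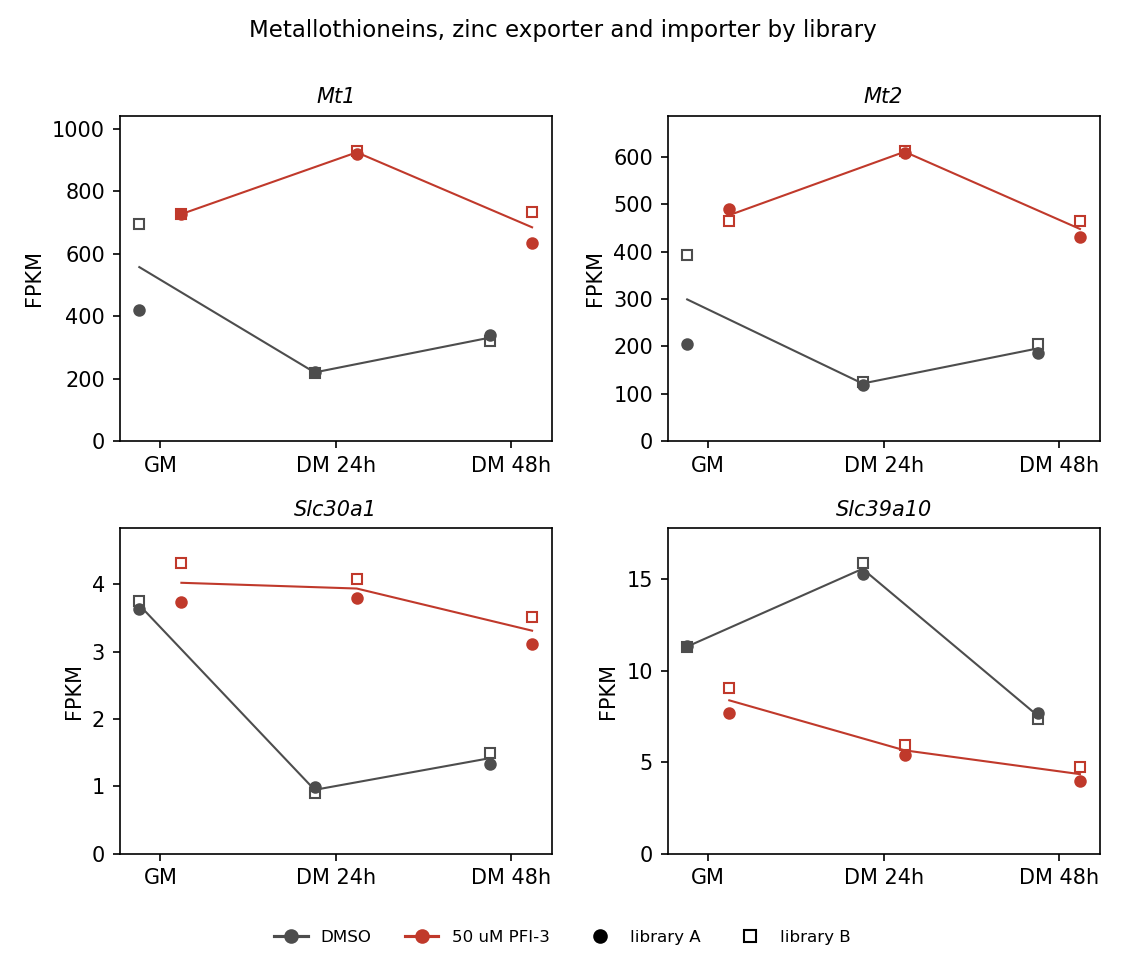
FPKM (vertical axis, from 0) of Mt1, Mt2, Slc30a1 and Slc39a10 by stage, with 1 point per library (filled circle A, open square B) and lines through the means of the 2 libraries, gray for DMSO and red for 50 uM PFI-3. At DM 24h, Mt1 is at 223 and 218 with DMSO and at 919 and 931 with PFI-3, whereas Slc39a10 is at 15.3 and 15.9 with DMSO and at 5.38 and 5.93 with PFI-3.

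As a description of the contrasts used for the choice, the fitted log2 difference of PFI-3 from DMSO at DM 24h was 2.02 for Mt1 (SE 0.16, 4.04-fold), 2.27 for Mt2 (SE 0.20, 4.83-fold) and 2.00 for Slc30a1 (SE 0.14, 4.01-fold). Among 12545 fitted values these ranked 97, 72 and 98 from the highest. The ratios of same-letter libraries were 3.98 and 4.11 for Mt1, 4.91 and 4.74 for Mt2, and 3.73 and 4.31 for Slc30a1. At DM 48h the fitted folds were 1.93, 2.14 and 2.19 in the same order, and the ranks were 539, 377 and 343. For all 3 genes the DM 48h fold was smaller than the DM 24h fold, and the DMSO level was higher at DM 48h than at DM 24h. The difference between the folds was not tested.

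Slc39a10, a plasma membrane zinc importer (chr1:46807544-46925776), showed the opposite direction. Its level was 76.3 and 79.7 CPM in DM 24h DMSO and 26.1 and 28.7 CPM in DM 24h PFI-3, then 40.2 and 38.6 CPM in DM 48h DMSO and 19.6 and 23.3 CPM in DM 48h PFI-3. The libraries of the treatments did not overlap at either stage. The fitted level was 2.85-fold lower with PFI-3 at DM 24h (log2 difference -1.51, SE 0.10, rank 241 from the lowest of 12545) and 1.84-fold lower at DM 48h (log2 difference -0.88, SE 0.11, rank 720).

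Among the other members at these stages, Slc39a14, an importer of zinc and also of iron and manganese, was at 87.0 and 83.0 CPM in DM 24h DMSO and 64.4 and 68.3 CPM in DM 24h PFI-3, a log2 difference of -0.36 (SE 0.11). Its DM 48h libraries overlapped. Slc39a6, another plasma membrane importer, was at 54.9 and 53.1 CPM in DM 48h DMSO and 66.7 and 65.6 CPM in DM 48h PFI-3, a log2 difference of 0.29 (SE 0.08), and its DM 24h libraries overlapped. Slc39a7, which releases zinc from the endoplasmic reticulum and Golgi, was at 213 and 224 CPM in DM 24h DMSO and 205 and 186 CPM in DM 24h PFI-3. At DM 48h the order of Slc39a7 was the other way, with 168 and 174 CPM in DMSO and 195 and 186 CPM in PFI-3. GENCODE M21 lists the transcript Gm20427 on the same strand over 80.7% of the exon bases of Slc39a7, so its reads are uncertain in origin.

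Slc30a5 and Slc30a7, which load zinc into the secretory pathway, and Mtf1 differed little. Their log2 differences at DM 24h were -0.00 for Slc30a5 (SE 0.07), 0.03 for Slc30a7 (SE 0.08) and -0.13 for Mtf1 (SE 0.08), and at DM 48h they were 0.15, 0.06 and -0.07. Mtf1, the regulator of the metallothionein genes, stayed between 32.7 and 47.0 CPM in all libraries and was highest at DM 48h. At DM 24h both PFI-3 libraries lay above both DMSO libraries for 3 of the 10 genes and below for 4, where 35.3% and 35.1% of all tested genes did so. At DM 48h they lay above for 6 and below for 2, against 35.5% and 35.9% of all genes; nothing is read from these shares, because the choice used these contrasts. The median log2 difference over the 10 genes was -0.01 (DM 24h) and 0.15 (DM 48h), against -0.00 and 0.00 over all genes.

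**Figure D2:**
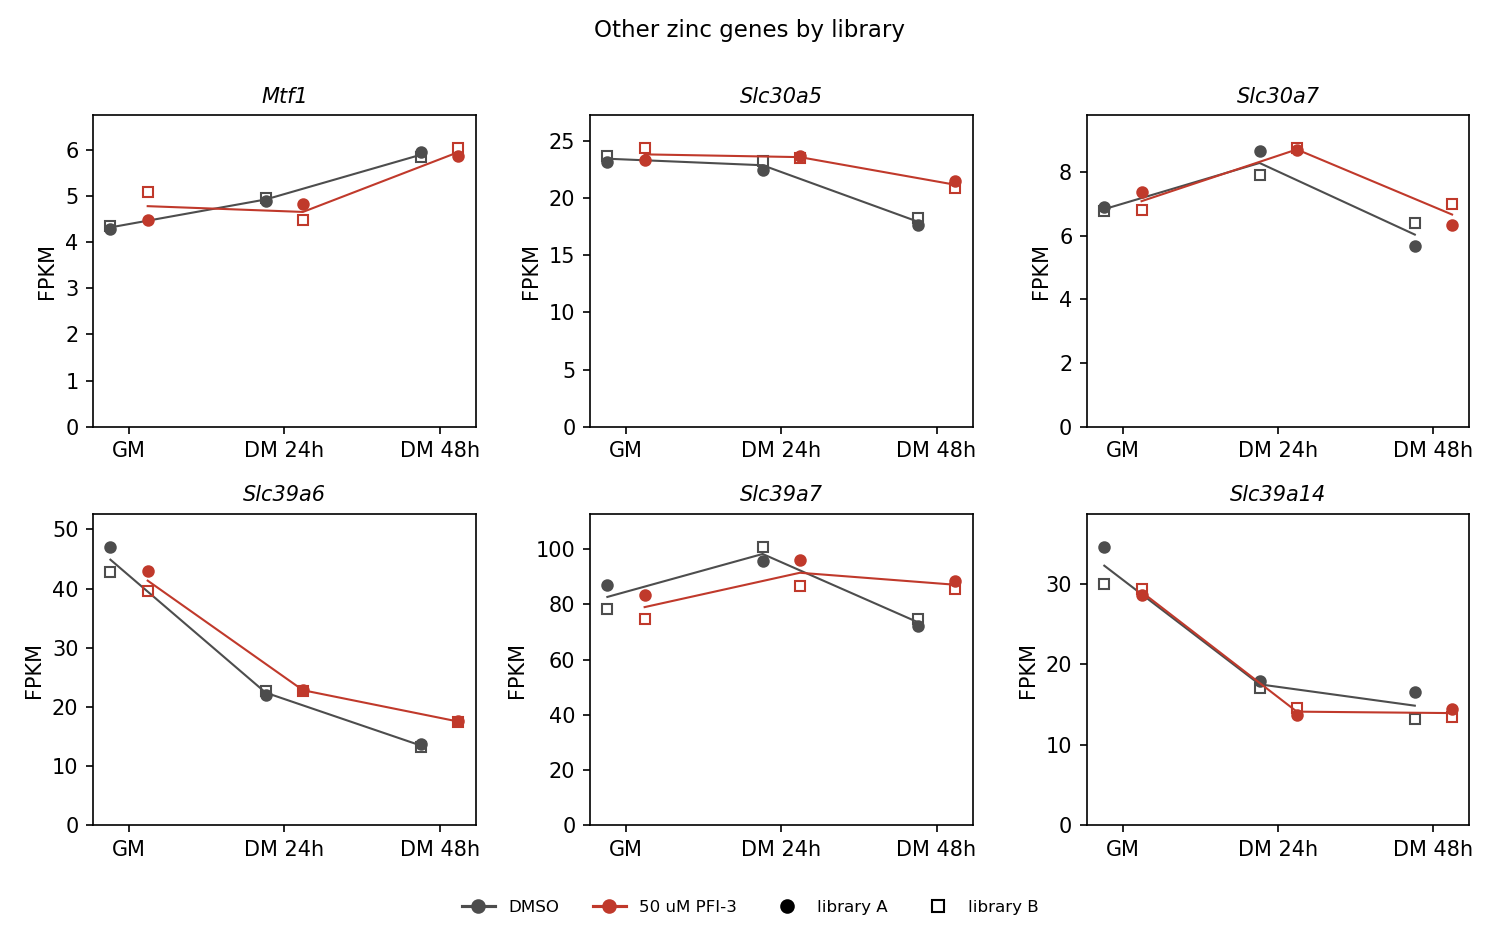
FPKM (vertical axis, from 0) of Mtf1, Slc30a5, Slc30a7, Slc39a6, Slc39a7 and Slc39a14 by stage, with 1 point per library, lines through the means of 2 libraries, gray for DMSO and red for 50 uM PFI-3. Slc39a6 and Slc39a14 are highest in GM in both treatments, and Mtf1 lies between 4.29 and 6.03 FPKM in all libraries.

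In proliferating cells, whose values the stated rule of choice did not use, PFI-3 was compared with DMSO by edgeR's quasi-likelihood test. Benjamini-Hochberg adjustment ran over 12545 genes, with calls made at adjusted p-values under 0.05. Members and lists were chosen with earlier results of these data known, so these tests are not on sets fixed beforehand. Slc39a10 fell and was the only member called, from 60.5 and 57.1 CPM to 37.3 and 44.1 CPM (log2 difference -0.53, SE 0.10, adjusted p = 0.00618 by edgeR). Both PFI-3 libraries were below both DMSO libraries. Of all genes, 11.6% were called in GM (5.46% higher, 6.15% lower). The main fit shares its estimate of the spread over all 12 libraries, and the GM pairs varied more than the DM pairs. The GM standard errors and p-values may therefore be too small, and the 11.6% too large. In the edgeR fit of only these 4 libraries the adjusted p was 0.218, and over 13 alternatives it ranged from 0.00162 to 0.218.

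The metallothionein differences in GM depended on the GM DMSO libraries, of which A was the lower and B the higher. Mt2 had 105 and 190 CPM with DMSO and 226 and 217 CPM with PFI-3, so that no library overlapped, and its log2 difference of 0.58 (SE 0.19) had an edgeR adjusted p of 0.0644. Among fits that kept both libraries of each group, Mt2 was called with no low-count filter (edgeR adjusted p = 0.0404). It was also called with the replicate letter as a block in all 12 libraries (log2 difference 0.61, edgeR adjusted p = 0.0354). Mt1 had 226 and 355 CPM with DMSO and 355 and 358 CPM with PFI-3, a log2 difference of 0.29 (SE 0.15, edgeR adjusted p = 0.229). Without GM DMSO B, the log2 difference of several members was larger in size than in the main fit. It was 0.66 for Mt1, 1.08 for Mt2, -0.32 for Slc39a6, -0.28 for Slc39a7 and -0.39 for Slc39a14. Over 13 alternatives it ranged from 0.005 to 0.66 for Mt1 and from 0.22 to 1.08 for Mt2. Ratios of PFI-3 to DMSO in same-letter libraries were 1.57 (A) and 1.01 (B) for Mt1, and 2.16 (A) and 1.14 (B) for Mt2. With 2 libraries, it cannot be told which GM DMSO library is closer to the usual level. Slc30a1, with the expected counts given above, had a log2 difference of 0.02 (SE 0.12, edgeR adjusted p = 0.921).

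None of the remaining GM members was called: Slc39a6 (log2 difference -0.22, edgeR adjusted p = 0.0824), Slc39a7 (-0.18, 0.176), Slc39a14 (-0.26, 0.144), Slc30a5 (-0.08, 0.475), Slc30a7 (-0.05, 0.742) and Mtf1 (0.05, 0.755). Both PFI-3 libraries lay above both DMSO libraries for 1 of the 10 genes (Mt2) and below for 5, where 21.4% and 24% of all genes did so. The median over the 10 genes was -0.06, against -0.01 over all tested genes.

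The response of DMSO cells to induction was then compared with growth. The DM DMSO libraries were an arm of the contrasts by which Mt1, Mt2 and Slc30a1 were chosen, so their differences between stages are given as a description, with no test. Slc30a1 was 4.03-fold lower at DM 24h than in GM (log2 difference -2.01, SE 0.14), Mt1 was 2.61-fold lower (-1.38, SE 0.16) and Mt2 was 2.53-fold lower (-1.34, SE 0.20). At DM 48h the levels were 2.57-fold, 1.66-fold and 1.51-fold lower than in GM in the same order. For Mt2 that DM 48h value depended on the GM DMSO libraries: the log2 difference was -0.59, and -0.10 without GM DMSO B. Over 13 alternatives it ranged from -0.96 to -0.10. For all 3 genes both DM 48h libraries lay above both DM 24h libraries, with log2 differences of 0.65 for Slc30a1, 0.65 for Mt1 and 0.75 for Mt2.

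The other 7 members were tested with edgeR over all genes. These comparisons share DMSO libraries with each other and with the contrasts used for the choice. At DM 24h, 4 of the 7 were called against GM (2 higher, 2 lower), where 60.6% of all genes were called (30.6% higher, 30% lower). Slc39a6 fell 2.08-fold (adjusted p = 3.13e-07) and Slc39a14 fell 1.91-fold (adjusted p = 1.59e-05). Slc39a10 rose 1.33-fold (adjusted p = 0.00287). Slc30a7 rose by 0.22 on the log2 scale (adjusted p = 0.0365), a call lost in 6 of 13 alternatives, including those without GM DMSO B (adjusted p = 0.138) and without DM 24h DMSO A (adjusted p = 0.224). Both DM 24h libraries were above both GM libraries for 4 of the 7 and below for 3, against 40.9% and 39.1% of all genes. The median was 0.14 over the 7 and 0.02 over all genes.

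At DM 48h against GM, edgeR called 5 of the 7 (1 higher, 4 lower), where 73.1% of all genes were called (37.2% higher, 35.9% lower). Slc39a6 fell 3.31-fold (adjusted p = 1.75e-09) and Slc39a14 fell 2.16-fold (adjusted p = 1.82e-06). Slc39a10 fell 1.49-fold (adjusted p = 0.000206) and Slc30a5 fell 1.30-fold (adjusted p = 0.000238), while Mtf1 rose 1.38-fold (adjusted p = 0.000289). Slc30a7 (-0.17, adjusted p = 0.0916) and Slc39a7 (-0.18, 0.0676) were not called. Both DM 48h libraries were above both GM libraries for 1 of the 7 and below for 6, against 44.2% and 41.8% of all genes, with a median of -0.38 over the 7 and 0.03 over all genes.

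Between DM 24h and DM 48h, edgeR called 6 of the 7 (1 higher, 5 lower), where 48.1% of all genes were called (24.2% higher, 23.9% lower). Slc39a10 fell 1.98-fold (adjusted p = 5.75e-06), and Slc39a6 fell 1.59-fold (adjusted p = 2.89e-05). Slc30a7 fell by 0.39, Slc39a7 by 0.36 and Slc30a5 by 0.29 on the log2 scale (adjusted p = 0.00232, 0.00390 and 0.00337), and Slc39a14 was not called (-0.17, adjusted p = 0.227). Mtf1 rose by 0.32 (adjusted p = 0.00672), a call lost with limma on log2(FPKM + 0.1) (adjusted p = 0.0596). Libraries did not overlap for 1 of the 7 higher and 5 lower, against 39.9% and 39.4% of all genes, with a median of -0.36 over the 7 and 0.00 over all genes.

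**Figure D3:**
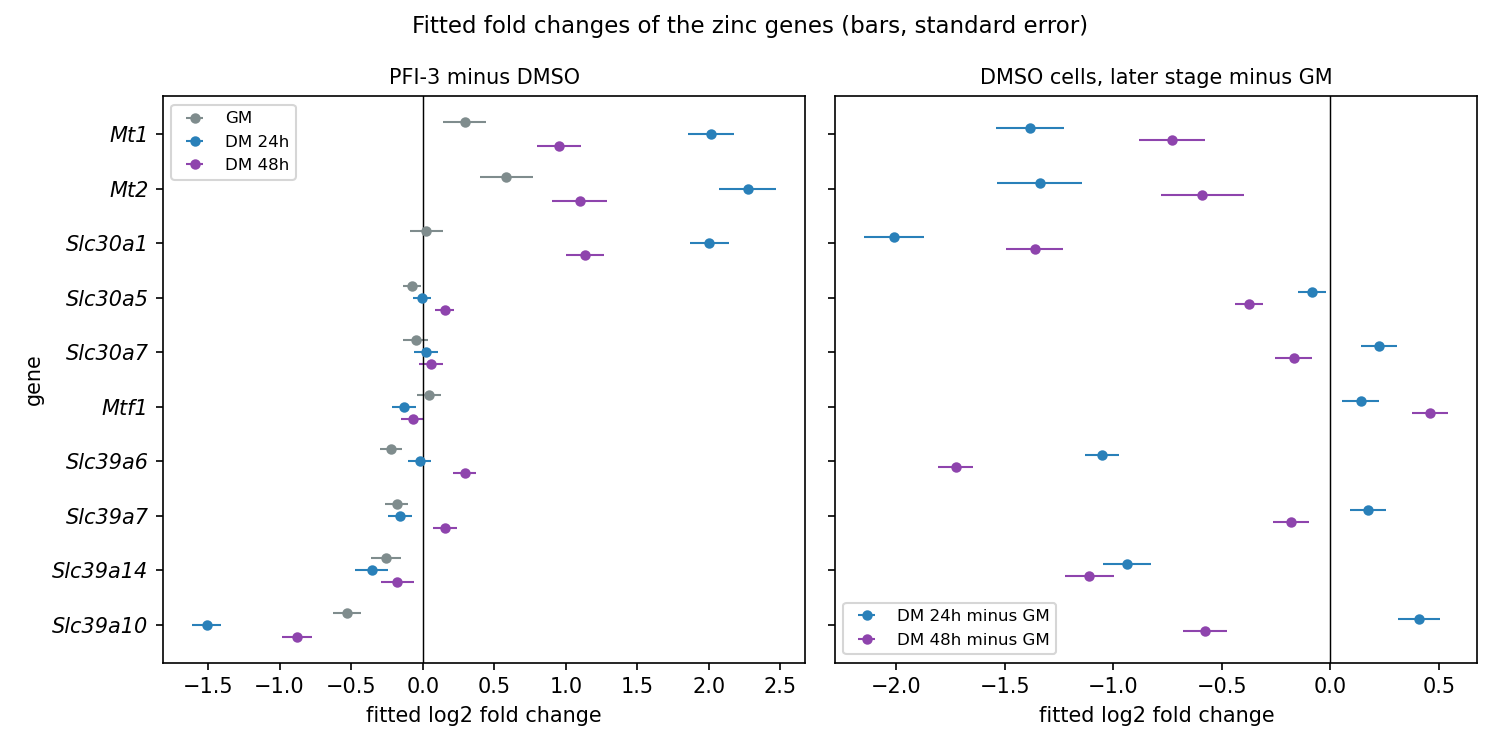
Fitted log2 fold changes (horizontal axis) of the 10 genes with standard error bars, for PFI-3 minus DMSO in each stage (left) and for DMSO cells at DM 24h or DM 48h minus GM (right). Mt1, Mt2 and Slc30a1 are at 2.02, 2.27 and 2.00 at DM 24h on the left, and at -1.38, -1.34 and -2.01 at DM 24h on the right.

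Other genes of zinc handling were taken from a list of 17 further transporters, of which 14 were listed and 10 tested. With PFI-3 in GM, edgeR called 3 of 10 lower and 0 higher, where 6.15% of all genes were called lower and 5.46% higher: Slc30a6 (log2 difference -0.40, adjusted p = 0.0251), Slc39a1 (-0.33, 0.0140) and Slc39a13 (-0.28, 0.0290). Each of these calls was lost in the fit of only the GM libraries and without at least 1 of the GM libraries. At DM 24h edgeR called 0 of 10, against 23.6% of all genes, with 2 at an unadjusted p under 0.05. The DESeq2 Wald test called 0 and limma on log2(FPKM + 1) called 1. In the edgeR fit of only the DM 24h libraries, 4 of the 9 then tested were called. The wide GM pairs enter the shared spread of the main fit, so its 0 calls do not show that these genes were unchanged. At DM 48h, where 27.4% of all genes were called, edgeR called 2 of 10, Slc30a6 higher (0.30, adjusted p = 0.0474) and Slc30a9 lower (-0.23, adjusted p = 0.0368), and the DESeq2 Wald test called 0. The metallothionein genes Mt3 and Mt4 were listed in no table.

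With DMSO alone, 4 of these 10 transporters were called at DM 24h against GM, 7 of 10 at DM 48h against GM and 5 of 10 at DM 48h against DM 24h, where 60.6%, 73.1% and 48.1% of all genes were called. Slc30a9 rose in each of these comparisons (log2 differences 0.39, 0.93 and 0.54; edgeR adjusted p = 0.000680, 2.19e-07 and 7.20e-05). Slc39a13 fell at DM 24h (-0.34, edgeR adjusted p = 0.00163) and DM 48h (-0.50, 6.12e-05) against GM, as did Slc39a8 (-0.65, 0.0191, and -0.94, 0.00206), whose DM 24h call was lost without GM DMSO B or DM 24h DMSO B. Slc39a9 rose at DM 24h (0.41, edgeR adjusted p = 0.000349) and fell from DM 24h to DM 48h (-0.31, 0.00339). Slc30a4 (-0.55, edgeR adjusted p = 0.00245) and Slc30a6 (-0.61, 0.000161) fell at DM 48h against GM, and both fell from DM 24h to DM 48h (-0.52, 0.00684, and -0.39, 0.00837). Slc39a1 rose at DM 48h against GM (0.27, edgeR adjusted p = 0.00469) and against DM 24h (0.21, 0.0293), and Slc39a3 rose against GM (0.36, 0.0208). Without DM 48h DMSO A, 2 of 10 were called between DM 24h and DM 48h, with the calls of Slc30a6, Slc39a1 and Slc39a9 lost, and the Slc39a3 call was also lost. That of Slc39a3 was lost without GM DMSO A, and that of Slc39a1 against DM 24h without DM 24h DMSO A or DM 48h DMSO B.

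Of 7 other genes known as MTF1 targets, 6 were tested. Selenow, which encodes a selenoprotein, rose with PFI-3 from 56.5 to 84.0 CPM in GM (log2 difference 0.57, adjusted p = 0.00603 by edgeR) and from 80.5 to 124 CPM at DM 24h (0.63, adjusted p = 0.00117). Gclc, the catalytic subunit of the enzyme that starts glutathione synthesis, rose in all 3 stages (log2 differences 0.40, 0.47 and 0.61, edgeR adjusted p = 0.00776, 0.00167 and 0.000208). Gclc is also in the electrophile and heavy-metal stress list below, so its calls count in both lists. In GM, Csrp1 (-0.66, edgeR adjusted p = 0.0147) and Pgf (-0.58, 0.0175) fell, and at DM 48h the iron exporter gene Slc40a1 (-1.31, 0.000225) and Ndrg1 (-1.31, 0.000266) fell. In all, 4 of 6 were called in GM, 2 of 6 at DM 24h and 3 of 6 at DM 48h, where 11.6%, 23.6% and 27.4% of all genes were called. The 4 GM calls were lost in the fit of only the GM libraries, those of Csrp1 and Pgf also without GM PFI-3 A, and that of Pgf without GM DMSO A.

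The electrophile and heavy-metal stress list, whose genes respond to oxidants and heavy metals, was called in 7 of 11 members in GM (6 higher), 8 of 11 at DM 24h (7 higher) and 7 of 11 at DM 48h (7 higher), where 11.6% (5.46% higher), 23.6% (12.2% higher) and 27.4% (13.4% higher) of all genes were called. Its median log2 difference was 0.34, 0.44 and 0.44, against -0.01, -0.00 and 0.00 over all tested genes. Nqo1, a quinone reductase, rose from 85.0 to 277 CPM in GM (1.70, SE 0.14, edgeR adjusted p = 3.14e-05), from 26.4 to 144 CPM at DM 24h (2.45, SE 0.16, adjusted p = 1.11e-06) and from 6.24 to 45.9 CPM at DM 48h (2.88, SE 0.20, adjusted p = 1.45e-06). Srxn1, which repairs oxidized peroxiredoxins, rose by 1.07, 0.67 and 1.08. Gclm, the regulatory subunit partner of Gclc, rose in GM (0.58, edgeR adjusted p = 0.000898). The thioredoxin reductase gene Txnrd1 rose in GM (0.43, edgeR adjusted p = 0.00492) and at DM 48h (0.74, 3.75e-05). The GM calls of both were lost in 1 of 13 alternatives. Both means were also higher with PFI-3 at DM 24h, from 28.5 to 35.2 CPM for Gclm and from 223 to 287 CPM for Txnrd1. At most 4 called genes per direction are named, so a gene left unnamed at a stage may still have been called there. The heat shock genes Hspa1b (1.08) and Hspa1a (0.90) rose at DM 24h, but they are near-identical copies whose counts can be exchanged in counting, and their calls were lost without DM 24h DMSO A or DM 24h PFI-3 A, Hspa1a also without either B library. Hspa1b also rose at DM 48h (1.01, edgeR adjusted p = 0.00963), a call lost without either B library of that stage. The cystine transporter gene Slc7a11 fell at DM 24h (-0.48, edgeR adjusted p = 0.000503) and in GM (-0.23, adjusted p = 0.04998), the latter call being lost in 7 of 13 alternatives. Fewer members of this list were called without DM 24h PFI-3 A (4 of 11), without either DM 24h DMSO library (5 of 11), without either B library of DM 48h (4 of 11) and in the fit of only the GM libraries (2 of 11). The Nqo1 and Srxn1 calls held in all 13 alternatives at each stage. Hmox1, a heme oxygenase gene induced by heavy metals, was not called at any stage. At DM 24h its mean was 49.1 CPM with DMSO (SD 0.33) and 66.8 CPM with PFI-3 (SD 0.59). Its means were 161 (SD 34.8) and 157 CPM (SD 92.8) in GM, and 54.0 and 50.9 CPM at DM 48h. The wide GM pairs enter the shared estimate of the spread, so the missing call does not show that Hmox1 was unchanged at DM 24h.

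In the glucocorticoid response list of 9 tested genes, Dusp1 (log2 difference 1.10, edgeR adjusted p = 0.00159) and Ddit4 (0.57, 0.00624) rose at DM 24h, whereas Klf9 (-0.79, 0.00487), Sgk1 (-0.56, 0.00738), Cebpd (-0.55, 0.00235) and Tsc22d3 (-0.44, 0.0112) fell at DM 48h. Ddit4 also rose in GM (0.58, 0.0252). These are 2 of 9 at DM 24h, 4 of 9 at DM 48h and 1 of 9 in GM, where 23.6%, 27.4% and 11.6% of all genes were called. The Dusp1 and Cebpd calls held in all 13 alternatives, whereas those of Ddit4, Klf9, Sgk1 and Tsc22d3 were each lost without at least 1 library of their comparison. Among 10 copper-handling genes, the copper exporter gene Atp7a fell at DM 24h (-0.32, edgeR adjusted p = 0.00978) and DM 48h (-0.28, 0.0146), the importer gene Slc31a1 fell (-0.23, 0.0196) and the copper chaperone gene Ccs rose (0.45, 0.0212) at DM 24h, and Sod1 rose in GM (0.30, 0.0243). These are 3 of 10 at DM 24h, 1 of 10 at DM 48h and 1 of 10 in GM, near those shares of all genes or below them. All 5 of these copper calls were lost without at least 1 single library.

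**Figure D4:**
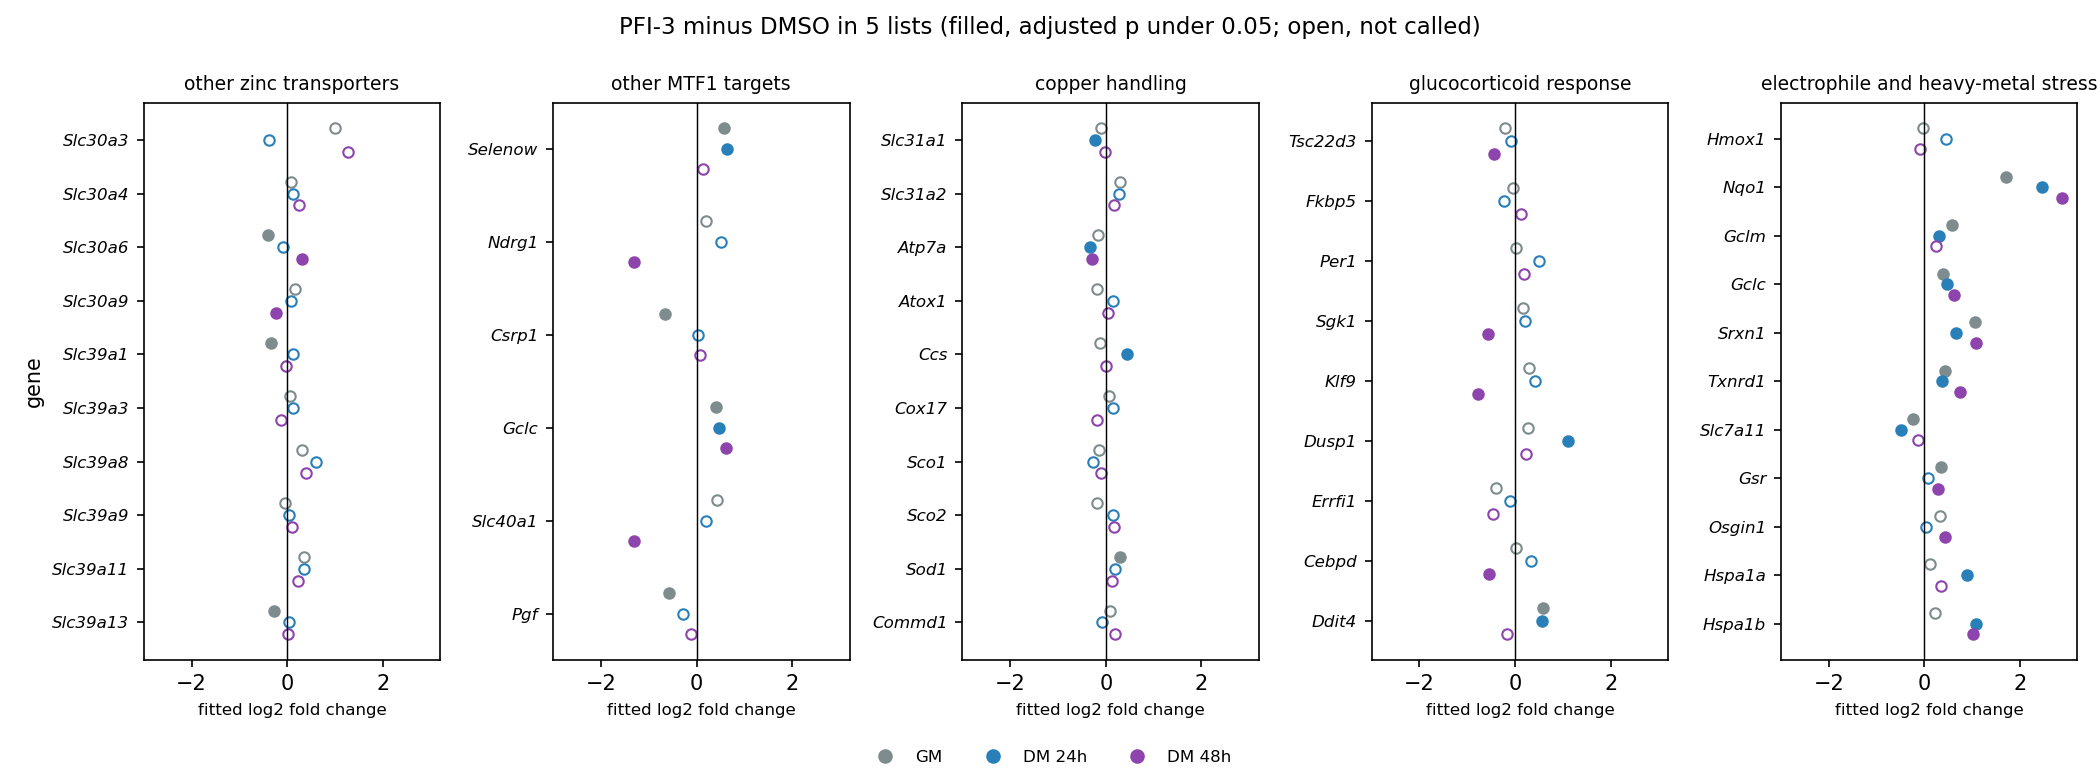
Fitted log2 fold changes of PFI-3 minus DMSO (horizontal axis) for the tested genes of 5 lists in GM, DM 24h and DM 48h, filled where edgeR's adjusted p was under 0.05 and open where it was not. In the electrophile and heavy-metal list Nqo1 is at 1.70, 2.45 and 2.88, and among the other zinc transporters the called values lie between -0.40 and 0.30.

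Patterns across libraries were described by Pearson correlation of log2(CPM + 1) over the 12 libraries, against 10365 other genes of at least 5 CPM on average; the points share stage and treatment groups, and they include the libraries by which Mt1, Mt2 and Slc30a1 were chosen, so nothing is read from the likeness of these 3 genes to each other. The genes most like Mt1 were Mt2 (r = 0.989), Vps26a (0.953), Ostm1 (0.941), Atp6v0c (0.939) and Abcc5 (0.932), with Slc30a1 at rank 6 (0.931). For Slc30a1 they were Epn2 (0.974), Atp6v0e (0.960), Rnf128 (0.947), Fbxo42 (0.942) and C2cd2l (0.938). Vps26a varied much less than Mt1, between 78.7 and 105 CPM. Slc39a10 was at -0.703 with Mt1 and Mtf1 at -0.324.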

How the data were processed

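Per the labels, library preparation and later data processing were done by BGI Americas. The submitters' processing notes name HISAT, StringTie, Cufflinks, Bowtie, RSEM, DESeq2 and the build mm10, without roles or versions. Each library has a deposited table of expected counts and FPKM values per gene, and replicates were not pooled, per the file headers. A gene missing from a table was taken as 0. Expected counts were rounded and fitted with edgeR 4.0.16 (R 4.3.3, TMM scaling, filterByExpr), 6 groups and all 12 libraries in 1 model. Benjamini-Hochberg adjustment ran over 12545 genes, with calls under 0.05. Alternatives used DESeq2 1.42.0, limma 3.58.1, other filters and scalings, the replicate letter as a block, only the libraries compared, and each library left out. Fits were tested on simulated data in which all libraries had the same spread. That test therefore does not cover the wider GM pairs. CPM values use the scaled total. Depth of 12576374 to 13658352 counts per library limits low genes such as Slc30a1. The genes named were all 10 members, and from each list the called genes of at least 1 CPM with the largest change, up to 4 per direction and comparison; between stages of DMSO cells only zinc transporters are named. Counts over 7 members and over zinc transporters between stages were added after seeing the data. The members and lists were chosen with earlier results of these data known. Tables and figures used Python 3.11.15, pandas 2.3.3 and matplotlib 3.10.9.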

Additional observations from a re-analysis of the deposited data

Results flagged for a closer look

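Several genes had PFI-3 libraries on opposite sides of the DMSO libraries in different stages, with no overlap in either. These differences between stages were not tested. Separation of 2 libraries from 2 was common: each direction held 21.4% to 35.9% of all tested genes, depending on the stage. The share of all genes that switched sides is not given, so nothing is read from how many are listed here. Some differences were small, such as that of Slc30a5 in GM (SE 0.06, edgeR adjusted p = 0.475). Values are fitted log2 differences of PFI-3 from DMSO. Among the zinc genes, Slc30a5 was at -0.08 in GM and 0.15 at DM 48h, Slc39a6 at -0.22 in GM and 0.29 at DM 48h, and Slc39a7 at 0.16 at DM 48h but -0.18 in GM and -0.16 at DM 24h. Slc30a6 was at 0.3 at DM 48h, where GM had -0.4 and DM 24h had -0.08. Slc39a1 was at -0.33 in GM and 0.12 at DM 24h. Slc30a9 was at -0.23 at DM 48h, where GM had 0.17 and DM 24h had 0.09.

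Among the other lists, Ndrg1 went from 0.51 (DM 24h) to -1.31 (DM 48h), and Slc40a1 from 0.2 to -1.31. Ccs was at -0.13 in GM and 0.45 at DM 24h. The glucocorticoid-responsive genes Ddit4 (0.58 in GM, 0.57 at DM 24h, -0.17 at DM 48h), Sgk1 (0.22 at DM 24h, -0.56 at DM 48h), Klf9 (0.41, -0.79) and Cebpd (0.34, -0.55) had PFI-3 libraries above DMSO at DM 24h and below at DM 48h. By edgeR, the DM 24h values of Sgk1, Klf9, Cebpd, Ndrg1 and Slc40a1 were not called. Neither were those of Ccs in GM and Ddit4 at DM 48h.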

How the results depend on the processing

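With 2 libraries a group, single libraries decided some calls. Without GM DMSO B, the GM log2 differences of Mt1 and Mt2 were 0.66 and 1.08, against 0.29 and 0.58 as reported. Those of Slc39a6, Slc39a7 and Slc39a14 were also larger in size. Members called in GM are counted here only for fits that kept both libraries of each group. They numbered 1 as reported, 2 with no low-count filter and 2 with the replicate block on all 12 libraries. In the edgeR fit of only the GM libraries they numbered 0 (1 at an unadjusted p under 0.05), and 1 with the replicate block there. The DESeq2 Wald test and limma, both fitted on all 12 libraries, each called 1. In DMSO cells at DM 24h against GM, edgeR called 4 of the 7 tested members, the DESeq2 Wald test 3 and limma on log2(FPKM + 1) 5. At DM 48h against GM each of these called 5, and between DM 24h and DM 48h each called 6. The edgeR fit of only the libraries compared called 3, 5 and 7 in the same order. Of all genes, 60.6%, 73.1% and 48.1% were called in the main fit. The first plan was to test all 10 members, but Mt1, Mt2 and Slc30a1 are left out of these counts because of how they were chosen. Other zinc transporters at DM 24h numbered 0 as reported, 1 with limma on log2(FPKM + 1), 1 with limma on log2(FPKM + 0.1), 1 with the replicate block on all 12 libraries, 4 with only the libraries compared and 4 with the replicate block there, and 0 to 0 without single libraries. At DM 48h they numbered 2 as reported, 1 with DESeq2 size factors, 0 with the DESeq2 Wald test (1 at an unadjusted p under 0.05) and 0 with no filter (2 unadjusted). They numbered 1 with each limma scale, 1 with the replicate block on all 12 libraries, 3 with only the libraries compared and 3 with the replicate block there. The cause was not tested. On log2(FPKM + 1), whose pseudocount compresses low genes, Slc30a1 at DM 24h was 1.34. For the replicate block, deviations of same-letter libraries correlated at 0.515 within GM, against 0.0312 (DM 24h) and 0.0570 (DM 48h). The GM libraries of a letter thus deviated together, but the meaning of the letter is not stated and a comparison holds only 2 pairs, so the block was kept as an alternative. No alternative reversed a called direction of a member.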
